A study of Mus musculus with 9 samples.

Results

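The thick ascending limb and the distal convoluted tubule of the mouse kidney were followed through 9 genes of salt transport, Slc12a1, Umod, Kcnj1, Bsnd, Slc12a3, Kcnj10, Pvalb, Trpm6 and Wnk1. They were chosen by symbol, and all 9 were present among the 52160 gene symbols that the pair of deposited count tables had in common. Polyadenylated RNA from whole kidneys had been sequenced in 3 groups of 3 libraries, all from C57Bl/6N mice 16 weeks old. In the ΔPod group Ybx1 was deleted from podocytes. The K2A group carried, in podocytes, a Ybx1 that cannot be secreted because 2 lysines encoded in exon 7 are changed (K299A and K302A). The WT group was wild type. The product of Ybx1, Y-box binding protein 1, is a cold shock protein that binds RNA and DNA and that cells can release. The series title names crosstalk between glomerulus and tubule through this protein, so the tubule genes bear on its question. The labels do not name the promoter that limits either allele to podocytes, and they state neither the sex of the mice nor whether the libraries of a group are from different mice, so p-values measure the spread between these samples.

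The thick ascending limb takes up sodium, potassium and chloride from the urine without water, which is what lets the kidney concentrate urine and generate a lumen-positive voltage that drives calcium and magnesium uptake. The distal convoluted tubule that follows takes up sodium chloride by a thiazide-sensitive carrier, and WNK kinases set the activity of the carriers in both segments through the kinases SPAK and OSR1. Basolateral potassium channels of the distal tubule sense plasma potassium and adjust this cascade. In humans, loss of function of several of these genes causes the salt-wasting disorders known as Bartter and Gitelman syndromes.

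The upstream sequences of the 5 genes on which the results turn are shown from the RefSeq promoter table (GRCm38.p6), each read 5′ to 3′ on the strand of its gene. They are the Slc12a1 sequence at chr2:125152350-125152504 on the plus strand, the Umod sequence at chr7:119479283-119479512 on the minus strand, the Kcnj1 sequence at chr9:32393735-32393984 on the plus strand, the Slc12a3 sequence at chr8:94328958-94329200 on the plus strand and the Pvalb sequence at chr15:78206401-78206650 on the minus strand. Capitals mark matches to 4 motifs that were searched on both strands.
Slc12a1: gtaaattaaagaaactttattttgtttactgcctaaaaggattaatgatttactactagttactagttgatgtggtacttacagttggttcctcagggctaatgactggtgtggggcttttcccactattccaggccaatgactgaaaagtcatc
Umod: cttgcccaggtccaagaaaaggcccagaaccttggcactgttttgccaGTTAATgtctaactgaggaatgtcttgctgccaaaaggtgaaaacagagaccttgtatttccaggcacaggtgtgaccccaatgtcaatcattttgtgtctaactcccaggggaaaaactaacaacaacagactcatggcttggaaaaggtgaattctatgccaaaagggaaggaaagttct
Kcnj1: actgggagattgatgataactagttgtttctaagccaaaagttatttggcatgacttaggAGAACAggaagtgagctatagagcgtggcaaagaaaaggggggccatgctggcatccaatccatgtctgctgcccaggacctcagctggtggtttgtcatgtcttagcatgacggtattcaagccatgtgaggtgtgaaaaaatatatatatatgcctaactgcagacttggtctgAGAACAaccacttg
Slc12a3: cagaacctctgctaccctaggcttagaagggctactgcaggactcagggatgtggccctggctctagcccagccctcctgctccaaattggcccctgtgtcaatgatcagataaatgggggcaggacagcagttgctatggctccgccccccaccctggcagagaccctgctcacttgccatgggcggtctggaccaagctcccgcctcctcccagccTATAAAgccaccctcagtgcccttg
Pvalb: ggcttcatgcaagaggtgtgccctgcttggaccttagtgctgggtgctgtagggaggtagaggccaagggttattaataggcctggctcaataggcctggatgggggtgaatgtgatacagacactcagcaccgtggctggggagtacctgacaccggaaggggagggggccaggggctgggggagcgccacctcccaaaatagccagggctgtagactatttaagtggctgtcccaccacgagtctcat
The table held 8 of the 9 genes, and bases inside the annotated gene were trimmed from windows that crossed its start. The Kcnj1 window lies inside the gene, and whether it holds annotated exon bases was not checked. A TATA box (TATAAA) was present in the Slc12a3 sequence 25 bases before its end and in 12.4% of the 250-base windows of 32851 promoters. GTTAAT was found in the Umod sequence and in 6.43% of those promoters. AGAACA, a steroid receptor half-site, occurred at 2 places in the Kcnj1 sequence and in 16.1% of promoters. AAGGTCA, read by oestrogen-related receptors and held by 4.08% of promoters, was in none of these 5 windows. These are matches of letters only.

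Total counts ran from 30777142 to 46882253 per library. Ybx1 itself had 1167, 881 and 605 CPM in ΔPod, 1078, 1152 and 554 CPM in K2A, against 1189.7, 1585 and 1185 CPM in WT, lower in every mutant library than in every WT library but not past the test, at a log2 fold change of -0.58 in ΔPod (SE 0.38, edgeR adjusted p = 0.465) and -0.51 in K2A (SE 0.38, edgeR adjusted p = 0.725). The libraries did not overlap for 18.2% of all tested genes between ΔPod and WT, and for 20.1% between K2A and WT. Podocytes are a small part of whole kidney, and a level of Ybx1 RNA does not check a substitution. Xist was at 17.0, 18.8 and 124 CPM in ΔPod, 30.9, 30.6 and 331 CPM in K2A, against 0 in WT, and 4 Y-linked genes summed to 0 in ΔPod, to at most 0.682 CPM in K2A and to 94.4 to 119 CPM in WT. The sex pattern and the genotype therefore cannot be told apart in either comparison with WT.

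The 9 libraries differed in how their counts depended on transcript length. The slope of log2 CPM on log2 length, taken over 17599 genes, was positive in 4 libraries, at 0.32 in ΔPod 3, 0.35 in K2A 3, 0.24 in WT 1 and 0.28 in WT 3. It was negative in the other 5, at -0.45 in ΔPod 1, -0.17 in ΔPod 2, -0.24 in K2A 1, -0.26 in K2A 2 and -0.07 in WT 2. Each group held libraries of both kinds, but with 1 positive slope in ΔPod and in K2A and 2 in WT. The labels name no batch, so these sets are defined by the counts themselves, and differences between them are descriptions. The share of counts on ribosomal protein genes, which are short, moved with the slope. It was 7.77%, 4.19% and 1.11% in ΔPod, 3.77%, 3.84% and 0.975% in K2A and 1.14%, 2.39% and 1.07% in WT.

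Slc12a1 (chromosome 2, 125152505 to 125230002, mm10) encodes NKCC2, the furosemide-sensitive carrier that brings salt into thick limb cells. Its transcript stood at 200.0, 410.1 and 831 CPM (counts relative to the TMM-scaled library size) in ΔPod 1, ΔPod 2 and ΔPod 3, at 360.1, 331 and 1395 CPM in K2A 1, K2A 2 and K2A 3, and at 1315, 530.3 and 1095 CPM in WT 1, WT 2 and WT 3. The third library of each mutant group was the highest of its group, and the groups overlapped.

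Umod (chromosome 7, 119462711 to 119479282) encodes uromodulin, the most abundant protein of normal urine, which the thick limb secretes. Umod had 1215, 2221 and 3553 CPM in ΔPod, 3253, 2654 and 4347 CPM in K2A, against 4727, 2943 and 4120.0 CPM in WT. ΔPod 1 and ΔPod 2 were below every K2A and WT library, and ΔPod 3 was above WT 2. An antisense gene, Gm44588, overlaps 539 bases of Umod exon. It had at most 2.30 CPM in any library.

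Kcnj1 (chromosome 9, 32372493 to 32399197) encodes ROMK, the apical potassium channel that recycles potassium for NKCC2. Its level was 696, 600.3 and 332 CPM in ΔPod, 346, 361 and 248 CPM in K2A, against 301, 349 and 289 CPM in WT. ΔPod 1 and ΔPod 2 lay above all other libraries, whereas ΔPod 3 lay within the WT range.

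Bsnd (chromosome 4, 106483456 to 106492283) encodes barttin, the subunit that carries the basolateral chloride channels to the membrane. It varied least, with 43.6, 58.6 and 78.0 CPM in ΔPod, 87.6, 78.1 and 52.4 CPM in K2A, against 69.4, 68.1 and 59.1 CPM in WT.

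Slc12a3 (chromosome 8, 94329201 to 94366214) encodes NCC, the thiazide-sensitive sodium chloride carrier. It stood at 54.0, 149 and 1202 CPM in ΔPod, at 139, 154 and 1075 CPM in K2A and at 638, 234 and 630.3 CPM in WT. In both mutant groups 1 library was above all WT libraries and the other libraries were below all of them. The highest ΔPod library thus exceeded the lowest by 22.3-fold, against 7.72-fold in K2A and 2.73-fold in WT, although the group means of 468 ± 637, 456 ± 536 and 501 ± 231 CPM (SD, n = 3) were close.

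Kcnj10 (chromosome 1, 172341210 to 172374085) encodes Kir4.1, the basolateral potassium channel of the distal tubule. With 3.58, 20.2 and 131 CPM in ΔPod, 16.1, 12.7 and 108 CPM in K2A, against 81.6, 27.0 and 81.2 CPM in WT, it had the same layout as Slc12a3. Its range within ΔPod was 36.7-fold, the widest of the 9 genes in any group.

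Trpm6 (chromosome 19, 18749983 to 18892511), the apical magnesium channel, had the fewest counts of the 9, at 2.60, 8.25 and 29.4 CPM in ΔPod, 7.07, 7.35 and 22.3 CPM in K2A, against 15.4, 8.13 and 18.1 CPM in WT. Wnk1 (chromosome 6, 119923969 to 120038672), the kinase at the head of the cascade, had 48.5, 113 and 592 CPM in ΔPod, 81.4, 94.6 and 509 CPM in K2A, against 368, 156 and 434 CPM in WT. Both followed Slc12a3 in that the highest library of the 9 was ΔPod 3. The annotation lists 26 Wnk1 transcripts, and counts per gene cannot separate the kidney-specific short form, which lacks a full kinase domain, from the long forms.

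Pvalb (chromosome 15, 78191114 to 78206400) encodes parvalbumin, a calcium-binding protein confined within the nephron to the early distal convoluted tubule. It ran the other way, at 289, 158 and 43.8 CPM in ΔPod, 112, 111 and 19.8 CPM in K2A, against 29.4, 61.8 and 27.3 CPM in WT. ΔPod 1 and ΔPod 2 were the highest libraries, and the third library of each mutant group was the lowest of its group. Parvalbumin is also a skeletal muscle protein. Of 9 muscle markers, Acta1, Ckm, Myh2, Myh4, Tnnt3 and Atp2a1 did not pass 0.109 CPM in any library. Myh1, a myosin heavy chain, was at 0, 1.36 and 1.17 CPM in ΔPod, 0.186, 0.474 and 6.22 CPM in K2A, against 0 in each WT library, and did not follow Pvalb over the libraries. Mylpf, a myosin light chain, was at 3.47, 1.92 and 1.27 CPM in ΔPod, 2.14, 1.93 and 0.774 CPM in K2A, against 0.859, 1.86 and 0.964 CPM in WT, in the same order of libraries as Pvalb within ΔPod and K2A. Myl1 reached at most 1.01 CPM. The 9 muscle markers together reached 2.54 to 3.94 CPM in ΔPod, 2.88 to 7.04 CPM in K2A and 0.915 to 2.03 CPM in WT.

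**Figure D1:**
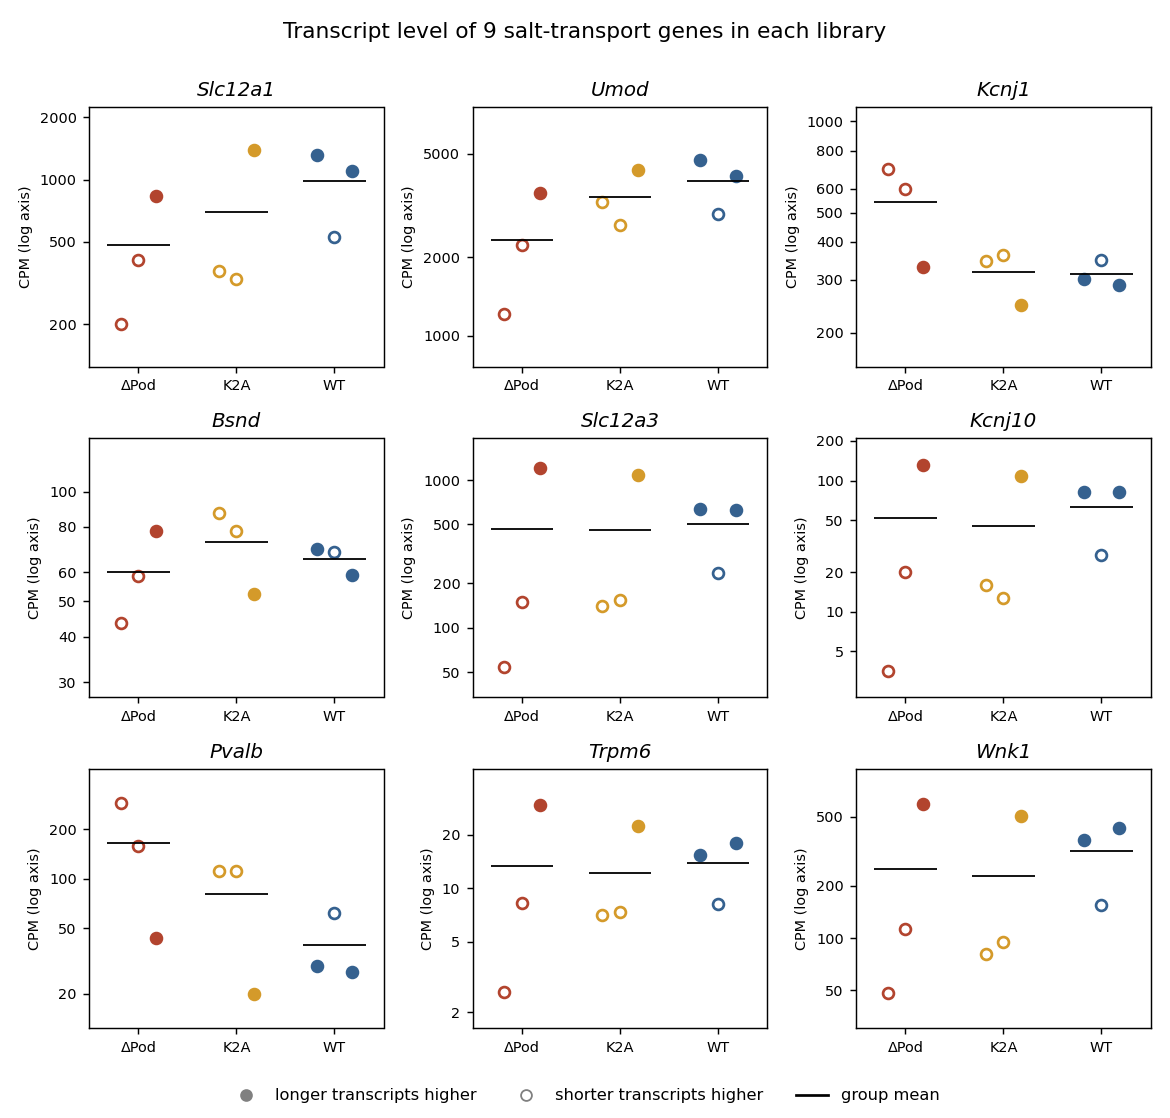
Level of each of the 9 genes in every library, in CPM on log axes, with ΔPod, K2A and WT from left to right. Filled points are libraries in which longer transcripts were higher, open points those in which shorter transcripts were higher, and bars are group means. Slc12a3, Kcnj10, Trpm6 and Wnk1 are high in filled points and low in open ones within every group, and Pvalb is the reverse.

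None of the 9 genes passed the test between ΔPod and WT at an adjusted p below 0.05, where 0.985% of all 18067 tested genes did. The median log2 fold change of the 9 was -0.12, against 0.08 over all tested genes, with 2 values above 0 and 7 below. All 9 were tested, and the ΔPod and WT libraries overlapped for each of them, while 18.2% of all genes did not overlap. Pvalb had the highest log2 fold change, 2.05 (SE 0.82, edgeR adjusted p = 0.339), on means of 164 ± 123 CPM for ΔPod and 39.5 ± 19.3 CPM in WT (SD, n = 3). Kcnj1 followed at 0.79 (SE 0.33, edgeR adjusted p = 0.352), on 543 ± 189 CPM in ΔPod and 313 ± 31.5 CPM in WT. These 2 genes had unadjusted p-values of 0.0341 and 0.0416, and 13.8% of all genes fell below 0.05 by that measure. Slc12a1 at -1.03 (SE 0.72, edgeR adjusted p = 0.485) and Umod at -0.75 (SE 0.43, edgeR adjusted p = 0.424) had the lowest values. Slc12a3, Kcnj10, Trpm6 and Wnk1 had values between -0.35 and -0.05 with standard errors of 0.82 to 1.22, so a 2-fold difference in either direction lay within 2 standard errors. Bsnd was at -0.12 (SE 0.31).

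Between K2A and WT none of the 9 passed either, with 0.847% of all genes called, 20.1% of all genes without overlap and overlap for each of the 9. Their median log2 fold change was -0.18, against 0.09 over all genes, and 3 were above 0. Pvalb was again highest at 1.03 (SE 0.79, edgeR adjusted p = 0.734), on means of 80.9 ± 52.9 CPM in K2A and 39.5 ± 19.3 CPM in WT. Kcnj1 stood at 0.02 (SE 0.33), on 319 ± 61.7 CPM in K2A and 313 ± 31.5 CPM in WT, Bsnd at 0.15 (SE 0.31) and Umod at -0.20 (SE 0.43). Slc12a1 had -0.49 (SE 0.71), Wnk1 -0.48 (SE 1.0), Kcnj10 -0.48 (SE 1.22), Trpm6 -0.18 (SE 0.82) and Slc12a3 -0.13 (SE 1.17). Both comparisons use the same WT libraries. With both mutant groups averaged against WT none of the 9 passed, where 1.79% of all genes did, and Pvalb was at 1.54 (SE 0.73, edgeR adjusted p = 0.381).

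Between K2A and ΔPod edgeR called 0 of the tested genes (0%), with 364 genes (2.01%) at an unadjusted p under 0.05 and 14 genes called by DESeq2. Of the 9 genes, Kcnj1 had the lowest p, at a log2 fold change of -0.77 (SE 0.33, edgeR unadjusted p = 0.0469, adjusted p = 1), which ranked 335 among all tested genes. Pvalb was at -1.02 (SE 0.79), Umod at 0.55 (SE 0.43), Slc12a1 at 0.53 (SE 0.71) and Bsnd at 0.27 (SE 0.31). The remaining 4 genes lay between -0.19 and -0.04 with standard errors of 0.82 to 1.22. The K2A and ΔPod libraries overlapped for all 9 genes, whereas 5.11% of all genes had no overlap.

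With group in the fit, 6 of the 9 genes were higher and 2 lower in the libraries of positive slope. This test was added after seeing the data. Of all genes 31.1% were called higher and 32.6% lower, but these shares depended on length. Called higher were 14.8% of genes from 1.5 to 3 kb, 38.6% from 3 to 4.5 kb, 63.4% from 4.5 to 7 kb and 81.0% above 7 kb. Slc12a1, Kcnj10 and Trpm6 are from 4.5 to 7 kb long, and Wnk1 is longer. Of genes under 1.5 kb, such as Pvalb, 64.0% were called lower. Kcnj10 differed most, by a log2 value of 2.65 (SE 0.48), followed by Slc12a3 at 2.62 (SE 0.40), Wnk1 at 2.25 (SE 0.32), Trpm6 at 1.70 (SE 0.34), Slc12a1 at 1.55 (SE 0.25) and Umod at 0.74 (SE 0.23). Pvalb at -2.01 (SE 0.32) and Kcnj1 at -0.57 (SE 0.19) were the lower ones, and Bsnd showed no difference beyond its error at -0.01 (SE 0.24). The order followed transcript length only in part. Wnk1 has the longest transcript of the 9 at 11330 bases and Pvalb the shortest at 977 bases, but Slc12a3 at 4310 bases and Kcnj10 at 5407 bases exceeded the 95th percentile of genes of their length, 1.81 between 3 and 4.5 kb and 2.38 between 4.5 and 7 kb. Umod, at 2625 bases, was at 0.74 where genes between 1.5 and 3 kb had a median of -0.34. Kcnj1, at 3075 bases, was at -0.57 where genes between 3 and 4.5 kb had a median of 0.30.

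**Figure D2:**
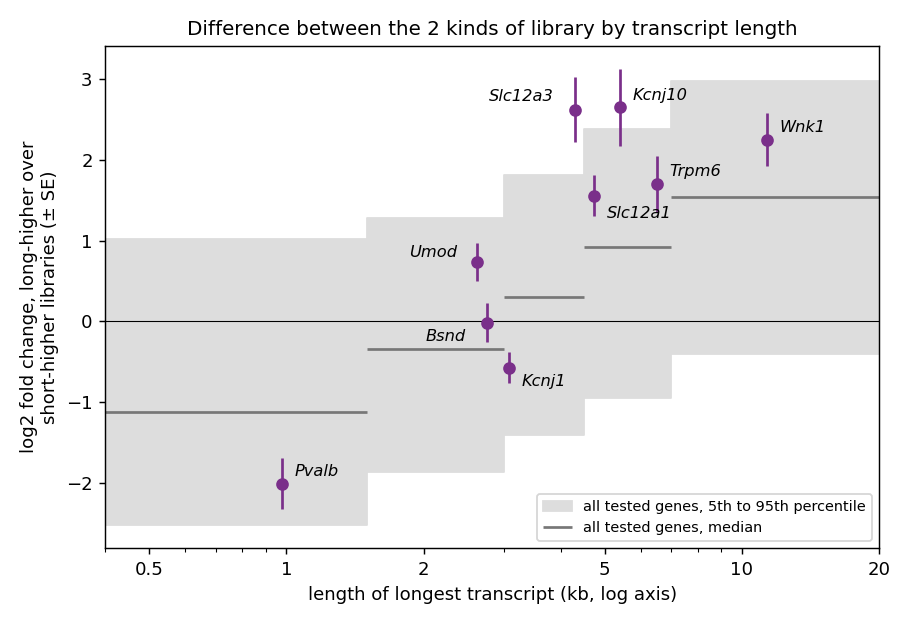
Log2 difference between the 4 libraries of positive length slope and the 5 of negative slope for each of the 9 genes (points, ± SE) against the length of the longest annotated transcript on a log axis. Grey bars show the 5th to 95th percentile and lines the median of all tested genes per length bin. Slc12a3 and Kcnj10 lie above their bins, and the other 7 genes lie inside theirs.

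Log2 fold changes within each set of libraries rest on an arm of 1 library, so they are given as values with no test. Among libraries of positive slope, ΔPod 3 against WT 1 and WT 3 gave 0.93 for Slc12a3, 0.82 for Trpm6, 0.70 for Kcnj10, 0.57 for Wnk1, 0.64 for Pvalb and -0.52 for Slc12a1. K2A 3 against the same WT libraries gave 0.78 for Slc12a3, 0.43 for Trpm6, 0.42 for Kcnj10, 0.36 for Wnk1, -0.50 for Pvalb and 0.23 for Slc12a1. Among libraries of negative slope, ΔPod 1 and ΔPod 2 against WT 2 gave -1.24 for Slc12a3, -1.22 for Kcnj10, -1.0 for Wnk1 and -0.62 for Trpm6, and K2A 1 and K2A 2 gave -0.71, -0.95, -0.87 and -0.21 for the same genes in that order. Slc12a3, Kcnj10, Wnk1 and Trpm6 thus had opposite signs in the 2 sets in both mutant groups. Tested as an interaction over all 9 libraries, which was added after seeing the data, the difference between the sets was 1.79 for Slc12a3 (SE 0.63, edgeR adjusted p = 0.463), 1.35 for Wnk1 (SE 0.54, edgeR adjusted p = 0.463) and -1.30 for Pvalb (SE 0.45, edgeR adjusted p = 0.463). No gene of the whole table passed that edgeR test (0%), and 1764 genes (9.76%) had an unadjusted p under 0.05, so a difference between the sets is not shown.

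Pvalb, Kcnj1, Slc12a1 and Umod had the same sign in ΔPod in both sets. Pvalb was at 0.64 among libraries of positive slope and at 1.81 among those of negative slope, and Slc12a1 was at -0.52 and -0.84. Kcnj1 was at 0.18 and 0.85, and Umod at -0.30 and -0.82. In K2A, the set of positive slope gave -0.50 for Pvalb, 0.23 for Slc12a1 and -0.24 for Kcnj1. The fit with group alone gave 1.03, -0.49 and 0.02 for them in K2A, so these signs were reversed. Umod kept its sign in K2A in both sets.

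With the length slope of each library as a covariate, Pvalb and Kcnj1 were called higher in ΔPod than in WT and the other 7 genes did not pass. The slope was computed from these same counts and was spread unevenly over the groups. Pvalb was at 0.84 (SE 0.12, edgeR adjusted p = 0.00255) and Kcnj1 at 0.46 (SE 0.13, edgeR adjusted p = 0.0446). With group alone they stood at 2.05 (SE 0.82) and 0.79 (SE 0.33) and were not called. The fit with the slope called 14.3% of all genes and 6.15% higher. Between K2A and ΔPod, Pvalb fell by 0.82 (SE 0.11, edgeR adjusted p = 0.0424), where 0.183% of all genes passed and 0.0775% were lower. Between K2A and WT none of the 9 passed in a fit that called 15.9% of all genes, and Pvalb was at 0.03 (SE 0.12). None of the 9 passed in any comparison when the sign of the slope took the place of its value. Neither Pvalb at 1.11 (edgeR adjusted p = 0.135) nor Kcnj1 at 0.55 (edgeR adjusted p = 0.217) passed in ΔPod by that fit, which called 3.96% of all genes there, 4.09% in K2A and 0% between K2A and ΔPod. Slc12a3, Kcnj10, Trpm6 and Wnk1 had values of 0.07 to 0.34 in ΔPod and of -0.0021 to 0.39 in K2A with the slope as covariate.

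**Figure D3:**
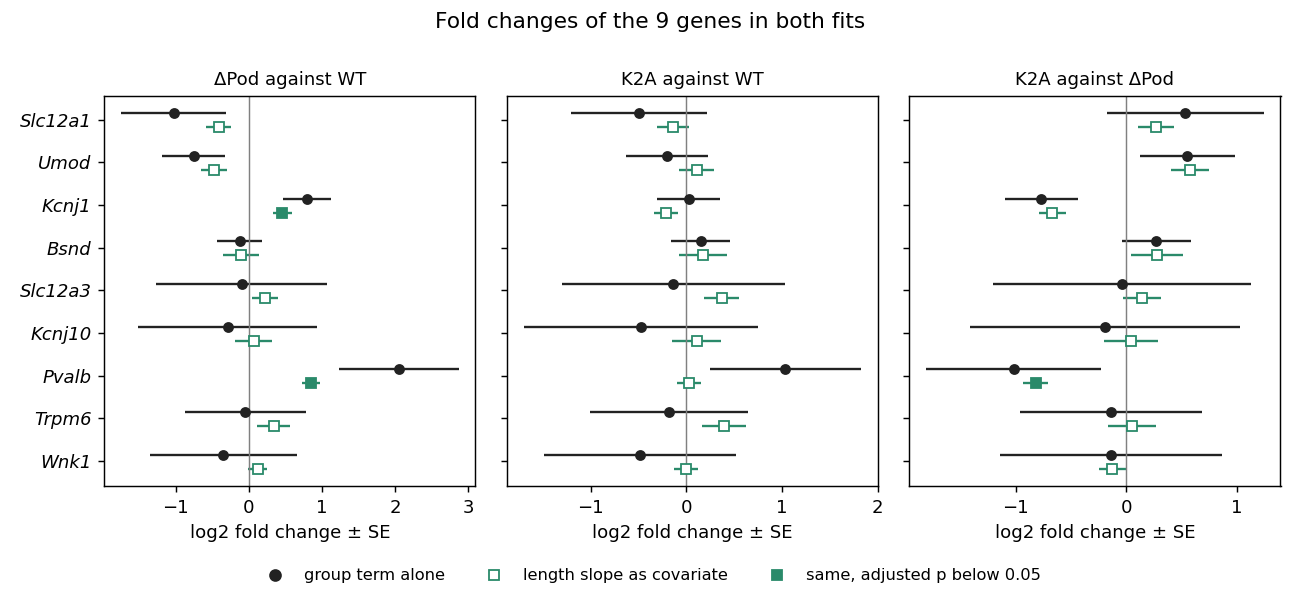
Log2 fold change ± SE of the 9 genes for ΔPod against WT, K2A against WT and K2A against ΔPod, with the group term alone (black circles) and with the length slope as a covariate (green squares, filled where the adjusted p is below 0.05). Pvalb and Kcnj1 in ΔPod against WT and Pvalb in K2A against ΔPod are the filled squares.

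Ratios of counts within a library do not depend on how libraries are scaled. The ratio of Slc12a3 to Slc12a1, of distal tubule to thick limb carrier, was 0.270, 0.364 and 1.45 in ΔPod, 0.387, 0.464 and 0.770 in K2A and 0.485, 0.441 and 0.576 in WT. ΔPod 3 was the sole library in which Slc12a3 had more counts than Slc12a1. The ratio of Umod to Slc12a1 was 6.08, 5.42 and 4.28 in ΔPod, 9.03, 8.02 and 3.12 in K2A and 3.60, 5.55 and 3.76 in WT, with K2A 1 and K2A 2 above all other libraries. Pvalb to Slc12a3, both transcripts of the early distal tubule, gave 5.36, 1.06 and 0.0365 in ΔPod, 0.803, 0.722 and 0.0185 in K2A and 0.0461, 0.264 and 0.0433 in WT. Pvalb thus had more counts than Slc12a3 in ΔPod 1 and ΔPod 2. Divided by the length of the longest transcript, the ratio was above 1 in 5 libraries, at 23.7 in ΔPod 1, 4.67 in ΔPod 2, 3.54 in K2A 1, 3.19 in K2A 2 and 1.17 in WT 2, the libraries of negative slope. Trpm6 to Slc12a3 spanned less, at 0.0483, 0.0552 and 0.0244 in ΔPod, 0.0507, 0.0479 and 0.0207 in K2A and 0.0241, 0.0348 and 0.0287 in WT. All 4 ratios overlapped between the groups.

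**Figure D4:**
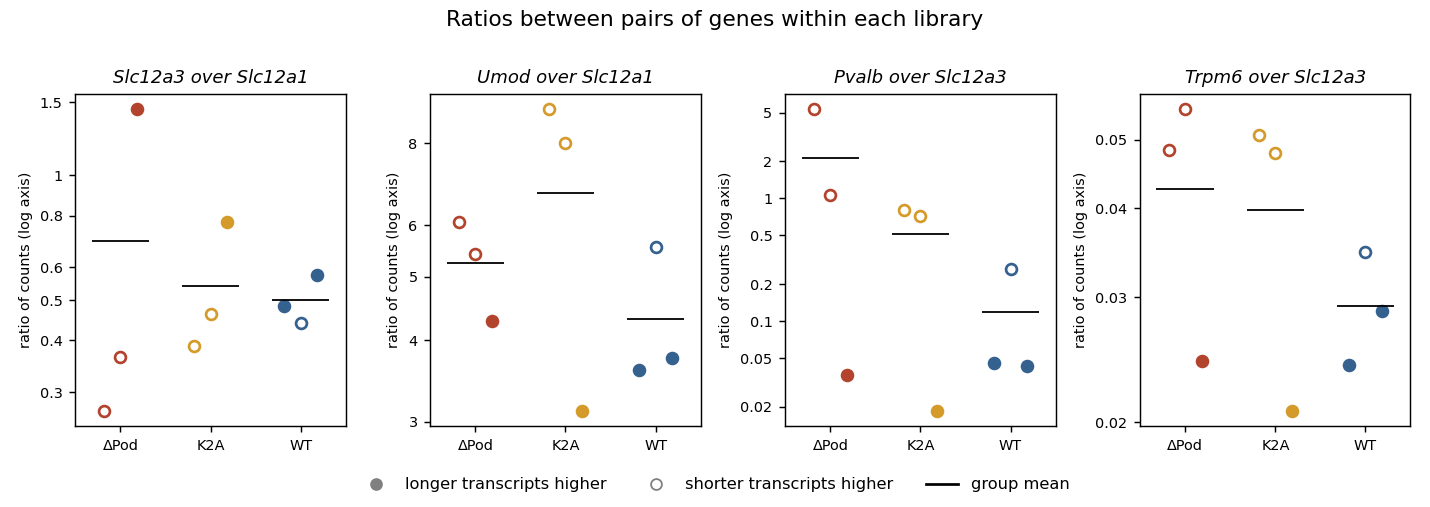
Ratios of raw counts between pairs of genes within each library, on log axes, with ΔPod, K2A and WT from left to right. Filled and open points are libraries of positive and negative length slope, and bars are group means. The ratio of Pvalb to Slc12a3 runs from 0.0185 in K2A 3 to 5.36 in ΔPod 1.

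Per kilobase of annotated exon and averaged over the 9 libraries, Umod had the highest level at 1168 CPM per kb. Slc12a1 at 125, Kcnj1 at 117, Pvalb at 91.0 and Slc12a3 at 42.7 CPM per kb came next, then Bsnd at 24.0, Wnk1 at 11.7, Kcnj10 at 9.89 and Trpm6 at 1.71 CPM per kb. Umod exceeded Slc12a1, Wnk1 exceeded Kcnj10, and Kcnj10 exceeded Trpm6 in all 9 libraries. Slc12a1 and Kcnj1 were not separated, since Slc12a1 was the higher one in 4 of 9 libraries, and neither were Pvalb and Slc12a3, at 5 of 9. Slc12a3 exceeded Bsnd in 4 of 9 libraries by this length and in 8 of 9 by the length of the longest transcript, because the union of Slc12a3 exons, 11119 bases, is far longer than that transcript. By the longest transcript Slc12a3 averaged 110.2 and Pvalb 96.9 CPM per kb.

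Candidates for genes of similar profile were 4756 genes whose log2 CPM averaged at least 5, leaving out Gm-number and Rik-type symbols. Those most like each gene over the 9 libraries were found by the root mean square difference of centred log2 CPM. Slc12a3 was nearest to Alpl (0.18), C77080 (0.25) and Cyfip2 (0.26), and Pvalb to Defb1 (0.20), Hoxb5os (0.21) and Tmsb4x (0.21). Slc12a1 was nearest to Acad11 (0.12), Cmtm4 (0.14) and Osbp (0.16), and Umod to Abcf2, Trappc10 and Tbc1d17 (each 0.11). Among the 9 genes themselves the closest pairs were Slc12a3 with Wnk1 (0.27) and Kcnj10 with Slc12a3 (0.31), and the most distant was Kcnj10 with Pvalb (2.81). These profiles share the libraries' dependence on length.

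The other genes of the pathway were taken from 5 lists. None of 12 further thick limb genes passed in any of the 3 comparisons, with a median log2 fold change of -0.36 in ΔPod and -0.09 in K2A relative to WT. The lowest p-value in K2A against WT was that of Maged2, which promotes the expression of NKCC2 and NCC, at 0.90 (SE 0.35, edgeR adjusted p = 0.380), and between K2A and ΔPod that of the tight junction gene Cldn19, at 0.61 (SE 0.31). Of 13 further distal tubule genes 12 were tested and none passed, with medians of -0.42 in ΔPod and -0.62 in K2A. Hsd11b2, which inactivates glucocorticoids, stood at -0.63 in ΔPod (SE 0.68) and the calcium-binding protein gene Calb1 at -0.48 in K2A (SE 0.31) and -0.51 between K2A and ΔPod (SE 0.31). The 3 genes of the sodium pump did not pass, with Fxyd2, its regulatory subunit, at 0.78 in ΔPod (SE 0.68) and at -0.57 between K2A and ΔPod (SE 0.68), and medians of -0.59 in ΔPod and -0.11 in K2A.

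None of 14 genes of the WNK, SPAK and OSR1 cascade passed, with medians of -0.36 in ΔPod and -0.24 in K2A. Sgk1, a kinase induced by aldosterone and by stress that acts on salt transport, had the lowest p-values of the list. It had 193, 204 and 227 CPM in ΔPod, 98.6, 317 and 169.7 CPM in K2A, against 67.2, 67.0 and 94.2 CPM in WT, so that each mutant library lay above each WT library. Of all genes, 18.2% separated in this way, in either direction, between ΔPod and WT, and 20.1% between K2A and WT. The log2 fold change of Sgk1 was 1.45 in ΔPod (SE 0.42, edgeR adjusted p = 0.212) and 1.36 in K2A (SE 0.42, edgeR adjusted p = 0.241). Ppp1r1b, which encodes a phosphatase inhibitor, was at 0.76 between K2A and ΔPod (SE 0.34).

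Nor did any of 10 transcription factors of these segments pass, with medians of -0.56 in ΔPod and -0.0029 in K2A. Irx1, a homeobox gene of the nephron, had 11.9, 25.6 and 24.8 CPM in ΔPod, 33.5, 30.5 and 46.5 CPM in K2A, against 72.7, 69.7 and 49.8 CPM in WT. Irx1 had no overlap between the 3 groups. It shared this with 18.2% of all genes for ΔPod against WT, 20.1% for K2A against WT and 5.11% for K2A against ΔPod. Its log2 fold change was -1.62 in ΔPod (SE 0.37, edgeR adjusted p = 0.100), -0.80 in K2A (SE 0.36, edgeR adjusted p = 0.490) and 0.82 between K2A and ΔPod (SE 0.36, edgeR adjusted p = 1).

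With the length slope as a covariate, a step added for these lists after seeing the data, some genes of the lists passed, in fits that called 14.3% of all genes in ΔPod and 15.9% in K2A. Of the 14 cascade genes 1 rose and 1 fell in ΔPod, and 1 rose and 3 fell in K2A. Sgk1 rose in ΔPod (1.46, SE 0.38, edgeR adjusted p = 0.0322) and in K2A (1.37, SE 0.38, edgeR adjusted p = 0.0366). Klhl2 fell in ΔPod (-0.56) and in K2A (-0.53), and Cul3 (-0.68) and Wnk2 (-0.82) fell in K2A. Klhl2 and Cul3 belong to the ubiquitin ligase that degrades WNK kinases. Of the 12 further thick limb genes 1 fell in ΔPod and 1, Maged2 (0.60), rose in K2A, and none of the 12 distal tubule genes passed. Of the 3 sodium pump genes Fxyd2 (-0.54) fell in K2A, whereas in the fit with group alone it stood at 0.21 (SE 0.68). Of the 10 transcription factors 2 fell in ΔPod, Irx1 (-1.47) among them, while in K2A 1 rose, Esrrb (0.46), and 1 fell. With the sign of the slope in its place, Irx1 passed in ΔPod (-1.56, edgeR adjusted p = 0.0290), and no other gene of the 5 lists passed in any comparison, Sgk1 included.

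Of the 11 marker lists, which hold the segments above and 9 other cell types, none had a called gene in any of the 3 comparisons in the fit with group alone. The 8 distal convoluted tubule markers, of which 4 are among the 9 genes, summed to 829, 1007 and 2871 CPM in ΔPod, 826, 853 and 1987 CPM in K2A, against 1857, 1053 and 1786 CPM in WT, and the 9 thick limb markers to 3769, 4525 and 7288 CPM, 5176, 4522 and 9197 CPM and 8819.6, 5145 and 7833 CPM in the same order. Both segments were thus present in every library. Proximal tubule markers ranged from 2319 to 11205 CPM in ΔPod, 3362 to 7469 CPM in K2A and 7466 to 15038 CPM in WT. Adipocyte markers summed to 503, 140.3 and 23.0 CPM in ΔPod, 438, 1088 and 43.2 CPM in K2A, against 36.0, 79.7 and 31.8 CPM in WT, and urothelial markers to 44.4, 11.4 and 0.645 CPM, 55.3, 67.0 and 7.57 CPM and 10.1, 6.84 and 5.66 CPM in that order. In the mutant groups, the libraries with high adipocyte and urothelial sums were those of negative slope with low Slc12a3 and high Pvalb, and their part in these results was not tested. With the length slope as a covariate, the fit that called Pvalb and Kcnj1, all 6 tested adipocyte markers were higher in K2A than in WT (median 5.71), 5 of 6 were higher in K2A than in ΔPod, and none of 6 passed in ΔPod against WT (median 1.59). That fit called 14.3% of all genes in ΔPod against WT, 15.9% in K2A against WT and 0.183% between K2A and ΔPod. In it 1 of 8 proximal tubule markers was higher and 3 lower in ΔPod than in WT, with 2 lower in K2A. Of 6 intercalated cell markers 2 were higher in ΔPod and 1 in K2A, of 6 principal cell markers 1 was higher in each mutant group, of 6 podocyte markers 2 were higher in K2A, and of 2 muscle markers tested Myh1 was higher in each mutant group. Between K2A and ΔPod 1 intercalated cell marker was lower. No urothelial, endothelial or macrophage marker passed in that fit. Their part in the calls of Pvalb, Kcnj1 and Sgk1 was not tested. Sums for principal cells ran from 362 to 671 CPM in ΔPod, 681 to 911 CPM in K2A and 491 to 866 CPM in WT, for intercalated cells from 335 to 481, 247 to 329.6 and 267 to 342 CPM, for podocytes from 103 to 746, 177 to 565 and 206 to 457 CPM, for endothelium from 139 to 397, 215 to 379 and 209 to 357 CPM and for macrophages from 117 to 278, 86.7 to 229 and 115 to 142 CPM, always in the order ΔPod, K2A, WT. In whole kidney, fewer cells of a type and less RNA per cell cannot be told apart.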

How the data were processed

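Polyadenylated RNA of 9 kidney samples had been sequenced, and the authors deposited raw counts by gene symbol as a pair of tables that share the WT libraries. Per the labels' protocols, RNA came from RNeasy columns and oligo-dT beads, and libraries from the ScriptSeq v2 kit. The build mm10 and, without their roles, STAR 2.7.3a, featureCounts 2.0.1, Trim Galore 0.6.3, DESeq2 1.30.0, FastQC 0.11.9 and MultiQC 1.10.1 are named in the submitters' processing notes. The strand setting of the counting is not given in the sources used here, so overlapping and antisense genes are uncertain. There were 52182 symbols in the ΔPod table and 52169 in the K2A table. Both listed 52163, and 3 with unequal WT counts were left out. Total counts were 30777142 to 46882253.

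All 9 libraries entered a single edgeR 4.0.16 quasi-likelihood fit in R 4.3.3 with a group term, filterByExpr, TMM factors and Benjamini-Hochberg adjustment over 18067 genes at 0.05. CPM are counts scaled by the effective library size, and log2 CPM used a prior count of 2. Alternatives were RLE and upper quartile factors, no filter, DESeq2 1.42.0, limma 3.58.1 voom with sample weights, a robust fit, only the 6 libraries compared, a replicate block, the length slope as covariate or by sign, libraries of 1 sign, and leaving out each library. Exact permutation of 3 against 3 cannot go below 0.1, so it was not used. The fitting steps were tested on simulated data. Lengths and coordinates came from GENCODE vM21, and sequences from RefSeq. The 9 genes, the lists and the alternatives were chosen with earlier results of these data known. The rule named the 9 genes, Ybx1, the called genes of each list (up to 4) or the 1 of lowest p, the 3 nearest genes of Slc12a1, Umod, Slc12a3 and Pvalb, Xist and the Y-linked genes. Some genes of the lists are not reported here by name. For the marker lists, sums are given in place of single genes. Genes named beyond the rule were chosen after their values were seen.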

Additional observations from a re-analysis of the deposited data

How the results depend on the processing

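The direction and the lack of a call held for most single values: of 567 comparisons of a gene's fold change with its value under an alternative, 453 kept sign and side of the threshold, 26 kept the sign and passed, and 88 changed sign. Some of these 88 also passed, all of them in fits among libraries of positive slope, where each mutant arm is 1 library. No member of the 9 was called when any 1 library was left out, under RLE or upper quartile factors, without the filter, under DESeq2, the robust fit, the 6 libraries compared, the replicate block or the sign term. Counts of all genes called moved for ΔPod, K2A and K2A against ΔPod under DESeq2 (771, 753 and 14), voom with sample weights (14146, 14059 and 4749, with 8, 8 and 3 of the 9), the slope covariate (2577, 2864 and 33, with 2, 0 and 1), libraries of positive slope alone (4162, 5647 and 1677, with 6, 4 and 3, each mutant arm being 1 library), the sign term (715 and 739 for the first pair), the replicate block (270 and 232), libraries of negative slope alone (46 and 27) and, for ΔPod, its 6 libraries alone (54). The voom weights ran from 0.0882 in K2A 3 and 0.106 in ΔPod 3 to 12 in ΔPod 2. The share of calls that were higher in ΔPod was 40.4% in the edgeR fit, 54.2% under DESeq2 and 50.7% under voom. Upper quartile factors moved the median of all genes to 0.26 in ΔPod and 0.24 in K2A. Leaving out 1 library gave 23 (without WT 3) to 411 (without ΔPod 3) genes for ΔPod, 3 (without WT 1) to 291 (without ΔPod 3) for K2A and 0 to 2 between K2A and ΔPod. Over those fits, fold changes in ΔPod ran from -0.39 to 0.0519 for Bsnd, -2.33 to 0.42 for Slc12a3, -2.44 to 0.25 for Kcnj10, -1.38 to 0.43 for Trpm6 and -2.02 to 0.13 for Wnk1, lowest without ΔPod 3 and highest without ΔPod 1. In K2A they ran from -0.0850 to 0.13 for Kcnj1, -0.0171 to 0.29 for Bsnd, -1.82 to 0.28 for Slc12a3 and -0.99 to 0.0859 for Trpm6, and between K2A and ΔPod from -0.49 to 1.2 for Slc12a1, -1.70 to 2.17 for Slc12a3, -1.87 to 1.94 for Kcnj10, -0.92 to 1.17 for Trpm6 and -1.53 to 1.51 for Wnk1. Other changes of sign follow. Kcnj1 in K2A was at -0.0373 under RLE, -0.0337 without the filter, -0.0545 under DESeq2, -0.00287 with the replicate block, -0.21 with the slope, -0.19 with its sign, and -0.24 and -0.0155 in libraries of positive and negative slope. Upper quartile factors gave 0.0412 for Bsnd and 0.0591 for Trpm6 in ΔPod. Between K2A and ΔPod, voom gave -0.22 for Slc12a1 and 0.00418 for Slc12a3, and the replicate block 0.19 for Slc12a3 and 0.0871 for Trpm6. The slope covariate gave in ΔPod 0.22 for Slc12a3, 0.0651 for Kcnj10, 0.34 for Trpm6 and 0.12 for Wnk1, in K2A 0.11 for Umod, 0.37 for Slc12a3, 0.11 for Kcnj10 and 0.39 for Trpm6, and between them 0.15 for Slc12a3, 0.0429 for Kcnj10 and 0.0534 for Trpm6. The sign term gave 0.13 for Trpm6 in ΔPod, 0.0448 for Umod, 0.0887 for Slc12a3 and 0.21 for Trpm6 in K2A, and 0.23 for Slc12a3, 0.0295 for Kcnj10 and 0.0834 for Trpm6 between them. Libraries of positive slope gave in ΔPod 0.29 for Bsnd, 0.93 for Slc12a3, 0.70 for Kcnj10, 0.82 for Trpm6 and 0.57 for Wnk1, in K2A 0.23 for Slc12a1, -0.28 for Bsnd, 0.78 for Slc12a3, 0.42 for Kcnj10, -0.50 for Pvalb, 0.43 for Trpm6 and 0.36 for Wnk1, and -0.57 for Bsnd between them. Libraries of negative slope gave between K2A and ΔPod 0.53 for Slc12a3, 0.27 for Kcnj10, 0.41 for Trpm6 and 0.14 for Wnk1. The cause of these changes was not tested. Same-numbered libraries did not deviate together throughout (r = -0.62 for ΔPod 1 with WT 1 and -0.54 for K2A 1 with WT 1, and 0.40 to 0.85 for the other 7 pairs), so the number is not read as a pairing, and the replicate block called none of the 9. The order by level per length kept 7 of 9 ranks by the longest transcript and 7 of 9 in WT alone, with Pvalb and Slc12a3 exchanging places. Trpm6, at 2.60 CPM in its lowest library, has the least depth.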
